A study of Mus musculus with 3 samples.

Results

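The 10 genes described here belong to the p53 pathway: Trp53 itself and Mdm2, Ccng1, Zmat3, Trp53inp1, Gdf15, Eda2r, Bax, Bbc3 and Pmaip1, a selection of genes that p53 is known to activate. The rule that picks them uses gene names and no values, but the list was drawn up with earlier results of these data known. All 10 were found among the 18348 mouse genes to which a probe of the arrays could be assigned. A probe not well above background is called dim. Their 16 probes comprised 11 that were well above background on all 3 arrays, 1 that was so on 1 array and 4 that were so on none. Each of the 10 genes had at least 1 probe of the first kind. Where a gene had several probes, the brightest was used and the others are reported beside it.

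RNA came from C2C12, a mouse myoblast line whose cells fuse into multinucleated myotubes when serum is withdrawn, and was hybridised to one-colour Agilent whole mouse genome arrays, with 1 array for each of 3 groups. Neurogenic cellulates were BIO cellulates kept for 7 days in neurogenic medium, which per the protocol followed 250 nM reversine for 48 h and held N2 together with all-trans retinoic acid at 1.5 µM. BIO cellulates were myotubes, formed over 8 days in 2% horse serum (AraC at 10 µM was present on days 2 to 4), that were split into mononucleated pieces (cellulates) with the microtubule drug myoseverin for 48 h and given the GSK-3 inhibitor BIO for 2 days, starting 24 h after it. The remaining group was untreated C2C12 myoblasts, so all groups share the line and neither cellulate group has an array of untreated myotubes beside it. The BIO dose is 2.5 µM in the sample labels and 10 µM in the protocol, and the myoseverin dose is 20 µM in one source and 30 µM in another. The number of cultures behind each array is not given in the sources used here. Since each group has 1 array, the differences below carry no culture-to-culture error and were not tested. The effects of differentiation, AraC, myoseverin and BIO cannot be told apart, nor those of reversine, medium, retinoic acid and time.

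The transcription factor p53 is kept scarce in unstressed cells by Mdm2, an E3 ubiquitin ligase that targets it for degradation. Stress such as DNA damage frees p53, which then raises transcription of genes for cell-cycle arrest, apoptosis and repair, and of Mdm2, so that the response limits itself. The control of p53 activity lies mostly in protein stability and modification, so the RNA level of Trp53 is not a measure of that activity. Drugs that disturb microtubules or DNA synthesis are known activators of p53, and myotubes have left the cell cycle for good. An array of RNA from many cells cannot tell fewer expressing cells from less RNA per cell.

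Promoter sequences were taken from RefSeq (mouse build GRCm38.p6) to show which of the genes carry part of the p53 motif next to their start. The consensus p53 decamer was sought in the 250 bases before each annotated start. It is only part of a full p53 binding site, and its pattern is the same on both strands. A window was given for 7 of the 10 genes, and 4 of these held 1 decamer each. Of all 27025 genes with a window, 8.20% held at least 1 decamer, and of 38 other p53 targets with a window 23.7% did. The 4 stretches below are shown 5′ to 3′ on the gene's strand with the decamer in capitals and 15 bases on either side.
Trp53 (chr11:69580269-69580308, plus strand): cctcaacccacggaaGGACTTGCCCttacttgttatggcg
Mdm2 (chr10:117710920-117710959, minus strand): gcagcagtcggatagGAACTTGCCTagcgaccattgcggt
Ccng1 (chr11:40755447-40755486, minus strand): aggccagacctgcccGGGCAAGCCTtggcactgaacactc
Bax (chr7:45467075-45467114, minus strand): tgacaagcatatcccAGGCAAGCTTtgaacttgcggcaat
The decamer lay 75 bases before the start of Trp53, 186 before that of Mdm2, 185 before that of Ccng1 and 201 before that of Bax, counted from its first base. No window of Eda2r, Gdf15 or Bbc3 held one, which says only that these letters are not within that distance. The window of Eda2r is printed because this gene had the highest ratios to myoblasts of the 10.
Eda2r (chrX:97377210-97377459, minus strand): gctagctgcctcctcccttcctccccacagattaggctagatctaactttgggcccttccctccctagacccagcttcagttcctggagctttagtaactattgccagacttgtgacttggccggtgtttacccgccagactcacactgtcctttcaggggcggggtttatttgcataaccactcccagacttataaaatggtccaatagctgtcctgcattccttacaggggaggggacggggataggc

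The first comparison asked how the 10 genes differed in BIO cellulates from the myoblasts. Eda2r was higher and Bbc3 lower at the edge of 2-fold, while the other 8 differed by at most 1.59-fold. At least 2-fold higher was 1 of the 10, Eda2r, and 0 were at least 2-fold lower. Among 11184 genes measured on both arrays, 14.6% passed 2-fold, made up of 8.42% higher and 6.13% lower, so 1 of 10 is near the background. The median log2 ratio of the 10 was -0.21, against 0.01 for those 11184 genes.

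The second comparison asked what differed after the neurogenic treatment of BIO cellulates. Gdf15 was 2.74-fold and Bbc3 1.87-fold higher in neurogenic cellulates, so that 1 of the 10 was at least 2-fold higher and 0 were at least 2-fold lower. Of 10875 genes measured on both arrays 3.85% passed 2-fold, 2.45% higher and 1.41% lower. The 10 had a median log2 ratio of 0.29, against -0.18 for all 10875 genes, and 6 of the 10 were above 0.

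The last comparison set neurogenic cellulates against myoblasts. Eda2r, Gdf15 and Trp53inp1 were at least 2-fold higher and 0 of the 10 at least 2-fold lower, while Bax and Ccng1 were lower by slightly less than 2-fold. Among 10885 genes measured on both arrays 20.4% passed 2-fold, 9.35% higher and 11.0% lower, beside 3 of 10 here. The median of the 10 was -0.14, against -0.15 over all 10885 genes. Each array enters 2 of the 3 comparisons, so their values are not independent.

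**Figure D1:**
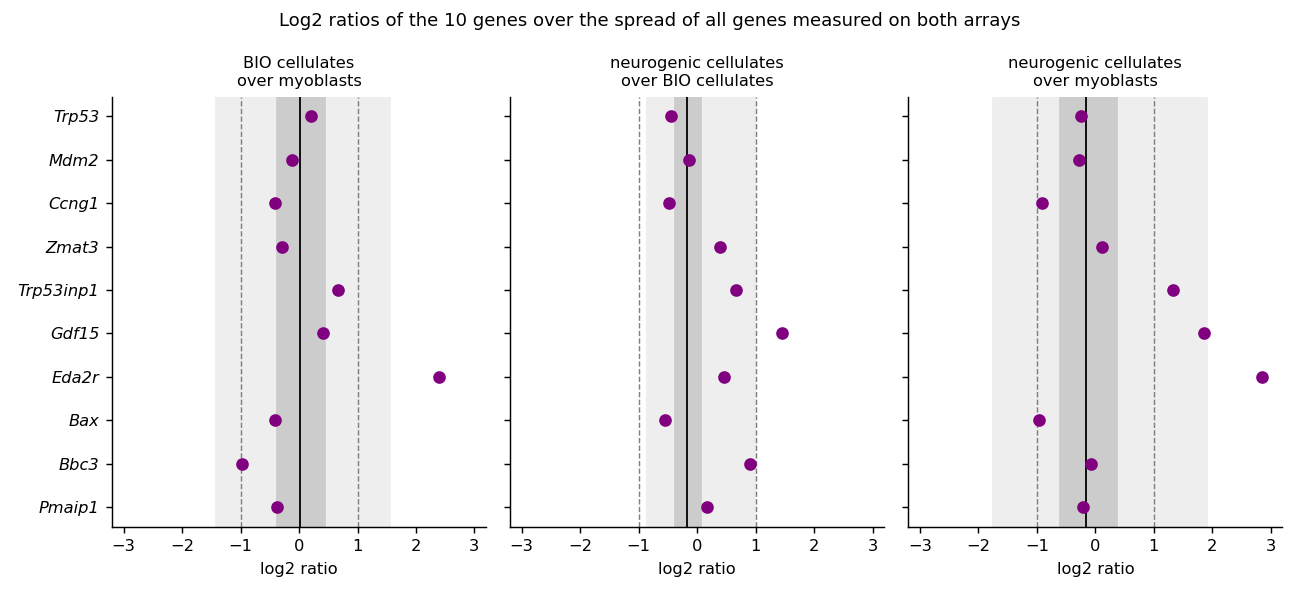
Log2 ratios (x axes) of the 10 genes (rows) in the 3 comparisons, as purple points. The black line is the median of all genes measured on both arrays, the dark band their middle 50% and the light band their middle 95%, and dashed lines mark 2-fold. Eda2r lies outside the light band in the left and right panels, and Gdf15 in the middle one.

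The only repeat measure was within an array, from probes spotted 10 times. From their spread, a pair of single spots with equal RNA would differ by less than a 95% limit of 1.46-fold for BIO cellulates over myoblasts, 1.36-fold for neurogenic over BIO cellulates and 1.41-fold for neurogenic cellulates over myoblasts. Past these limits were 3, 6 and 5 of the 10 genes, against 38.3%, 27.8% and 51.2% of all genes measured on both arrays. These limits cover spotting error alone. They hold for single spots and are too wide for Bax and Mdm2, whose values are means of 9 or 10 spots. The scaled signal is the processed intensity divided by the 75th percentile of its array, and levels are compared below only for the same probe on different arrays. For probes with a scaled signal under 1 the limits were wider, at 1.62-fold, 1.48-fold and 1.56-fold, and for brighter probes narrower, at 1.28-fold, 1.24-fold and 1.23-fold. With these separate limits, chosen after seeing the data, 6, 7 and 5 of the 10 genes were past the limit, against 45.9%, 37.7% and 59.4% of all genes. Bax, Ccng1 and Pmaip1 were then also past it in BIO cellulates against myoblasts. Trp53 and Zmat3 were past it, and Eda2r was not, when neurogenic cellulates were set against BIO cellulates.

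**Figure D2:**
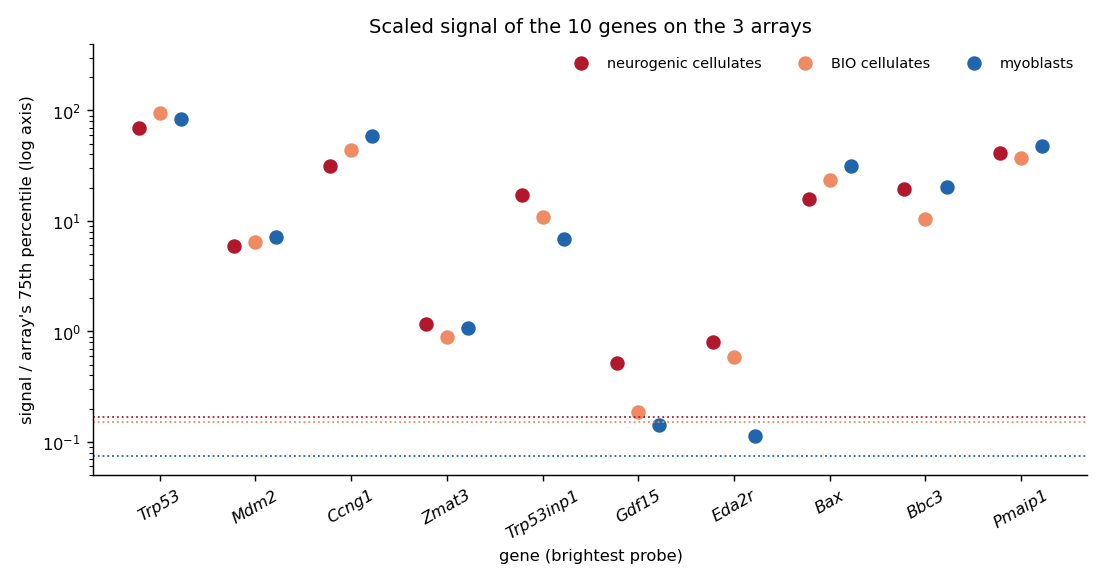
Scaled signal (y axis, log scale) of the brightest probe of each of the 10 genes (x axis) in neurogenic cellulates, BIO cellulates and myoblasts, 1 array each. Dotted lines mark the lowest signal called well above background on the array of that colour. Gdf15 in BIO cellulates and myoblasts and Eda2r in myoblasts lie close to those lines, and Gdf15 in neurogenic cellulates, the next lowest, stands 3.05-fold above its line.

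Trp53 encodes p53. Its brighter probe had a scaled signal of 70.0 in neurogenic cellulates, 95.1 in BIO cellulates and 83.0 in myoblasts. The largest of the 3 differences was 1.36-fold, and the log2 ratios were 0.20 for BIO cellulates over myoblasts, -0.44 for neurogenic over BIO cellulates and -0.24 for neurogenic cellulates over myoblasts. A dimmer probe, spotted 10 times, averaged -1.50 ± 0.28, -1.29 ± 0.30 and -1.61 ± 0.34 on the log2 scale in neurogenic cellulates, BIO cellulates and myoblasts (SD over 10 spots of 1 array). Its spots overlapped between all 3 arrays, and both probes were highest in BIO cellulates.

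Mdm2 encodes the ligase that p53 both activates and is destroyed by. Its scaled signal, the log-scale mean of 10 spots, was 5.89 in neurogenic cellulates, 6.52 in BIO cellulates and 7.13 in myoblasts. The log2 ratio was -0.13 for BIO cellulates over myoblasts, -0.15 for neurogenic over BIO cellulates and -0.27 for neurogenic cellulates over myoblasts, with spot SDs of 0.07 to 0.12 on single arrays. The spots of neurogenic cellulates, between 5.54 and 6.34, lay below those of myoblasts, between 6.51 and 8.24, while BIO cellulates overlapped with both. Mdm2, a widely used readout of p53 activity, differed by at most 1.21-fold in the 3 comparisons. A second Mdm2 probe was not well above background on any array.

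Ccng1 encodes cyclin G1, a p53 target that recruits a phosphatase to Mdm2. Its scaled signal was 31.4 in neurogenic cellulates, 44.2 in BIO cellulates and 59.0 in myoblasts. It was lower on each cellulate array, by 1.34-fold in BIO cellulates against myoblasts and by 1.88-fold in neurogenic cellulates against myoblasts. A second Ccng1 probe went the other way: it was well above background in neurogenic cellulates alone, where it was at least 3.34-fold higher than in myoblasts and at least 1.67-fold higher than in BIO cellulates. Its scaled signal there was 0.251. The lowest signal called well above background was 0.168 on that array and 0.0752 in myoblasts. All 539 genes measured on the neurogenic array but not on the myoblast array passed 2-fold, so this bound is weak. With the median over its probes, the log2 ratio of Ccng1 for neurogenic cellulates over myoblasts was 0.42, against -0.91 by the bright probe. That change of sign rests on the second probe, whose signal was near background.

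Zmat3 encodes a zinc-finger protein that binds RNA and is a direct p53 target. The scaled signal of its probe was 1.17 in neurogenic cellulates, 0.889 in BIO cellulates and 1.08 in myoblasts. The log2 ratio was -0.29 for BIO cellulates over myoblasts, 0.40 for neurogenic over BIO cellulates and 0.11 for neurogenic cellulates over myoblasts. The largest of these is a 1.32-fold difference.

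**Figure D3:**
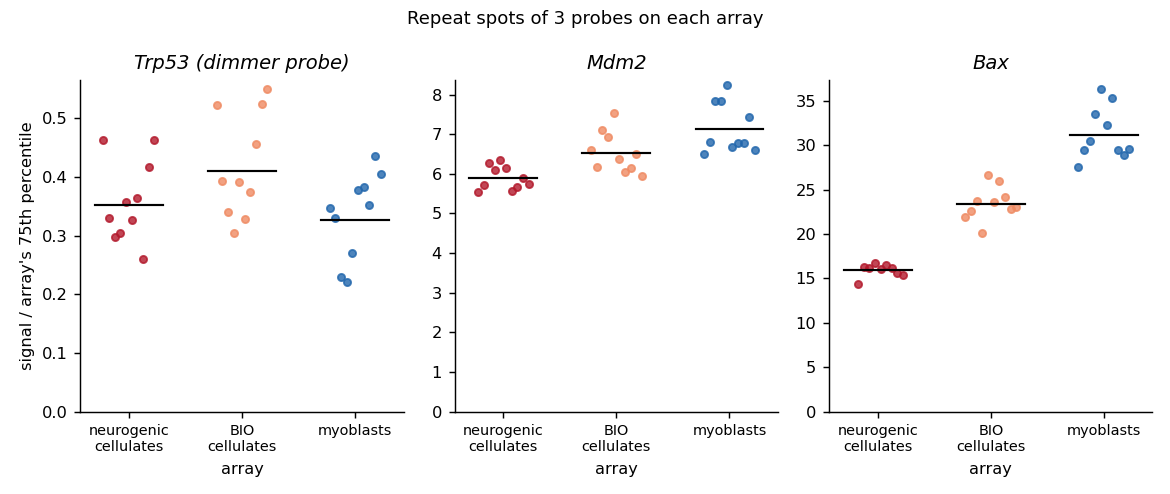
Scaled signal (y axes, from 0) of the repeat spots of the dimmer Trp53 probe, Mdm2 and Bax on the arrays of neurogenic cellulates, BIO cellulates and myoblasts. Points are spots of 1 array (10, or 9 for Bax in neurogenic cellulates) and lines their log-scale means. At this scaling the spots of Bax do not overlap between any of the arrays, whereas those of Trp53 overlap throughout.

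Among the genes for stress signalling, Trp53inp1 encodes a nuclear protein that p53 induces and that in turn promotes p53 function. Scaled signals of Trp53inp1 were 17.1 in neurogenic cellulates, 10.9 in BIO cellulates and 6.83 in myoblasts. It was 1.59-fold higher in BIO cellulates than in myoblasts, 1.58-fold higher in neurogenic than in BIO cellulates and 2.51-fold higher in neurogenic cellulates than in myoblasts. Of the 10885 genes measured on both arrays, 5.42% had a ratio at least as high in the last comparison. With each array scaled to its median that log2 ratio was 0.60, under 2-fold, and the one for BIO cellulates over myoblasts was -0.05, with its sign turned. The second Trp53inp1 probe was dim on all 3 arrays.

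Gdf15 encodes a secreted cytokine of the TGF-beta superfamily, a target of p53 and also of the integrated stress response. Its scaled signal was 0.513 in neurogenic cellulates, 0.187 in BIO cellulates and 0.141 in myoblasts. Only the neurogenic array was clearly high: the signal stood 3.05-fold above the lowest signal called well above background there, but 1.24-fold above it in BIO cellulates and 1.88-fold in myoblasts. Gdf15 was 2.74-fold higher in neurogenic than in BIO cellulates, a ratio that 1.15% of genes reached, and 3.63-fold higher than in myoblasts, which 2.62% reached. For BIO cellulates over myoblasts the log2 ratio was 0.40, but -0.31 with median scaling and -0.16 after quantile normalisation. After normexp background correction the 2 larger log2 ratios were 0.45 and 0.76, below 2-fold.

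Eda2r encodes a receptor of the tumour necrosis factor family that binds ectodysplasin A2. Its scaled signal was 0.807 in neurogenic cellulates, 0.590 in BIO cellulates and 0.112 in myoblasts. Both cellulate arrays were high and the myoblast array low. It was 5.25-fold higher in BIO cellulates than in myoblasts, and 83 of 11184 genes (0.742%) had a ratio that high, Eda2r included. It was 7.19-fold higher in neurogenic cellulates than in myoblasts, which 1.01% of genes reached, and 1.37-fold higher in neurogenic than in BIO cellulates. In myoblasts the probe stood 1.49-fold above the lowest signal called well above background, so the size of both folds rests on a signal near background. After normexp correction the log2 ratios to myoblasts were 1.27 in neurogenic cellulates and 1.01 in BIO cellulates, against 2.85 and 2.39 as reported. The other Eda2r probes, 2 in number, were dim on all 3 arrays.

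Among the apoptosis genes, Bax encodes the protein that opens the outer mitochondrial membrane. Its scaled signal was 15.9 in neurogenic cellulates (9 spots, since 1 was marked as an outlier), 23.4 in BIO cellulates and 31.2 in myoblasts (10 spots each). On the log2 scale these were 3.99 ± 0.06, 4.55 ± 0.12 and 4.96 ± 0.13 (SD over spots of 1 array), and at this scaling no spot of one array reached the range of another. Spot spread does not cover the scaling between arrays: with spike-in scaling the log2 ratio of neurogenic to BIO cellulates was -0.18. Bax was 1.33-fold lower in BIO cellulates than in myoblasts, 1.47-fold lower in neurogenic than in BIO cellulates and 1.96-fold lower in neurogenic cellulates than in myoblasts. A ratio at least as low as the last was found in 11.8% of genes.

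Bbc3 encodes Puma, which binds and blocks the survival proteins of the Bcl2 family. Scaled signals of Bbc3 were 19.6 in neurogenic cellulates, 10.4 in BIO cellulates and 20.5 in myoblasts. The BIO array stood apart as the low one, 1.96-fold lower than myoblasts, a ratio that 6.58% of genes matched or went below. Neurogenic cellulates were 1.87-fold higher than BIO cellulates, which 2.91% of genes reached, and had a log2 ratio of -0.07 to myoblasts.

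Pmaip1 encodes Noxa, another such blocker with a preference for Mcl1. Its scaled signal was 41.6 in neurogenic cellulates, 36.8 in BIO cellulates and 48.0 in myoblasts. The log2 ratios were -0.38 for BIO cellulates over myoblasts, 0.17 for neurogenic over BIO cellulates and -0.21 for neurogenic cellulates over myoblasts, at most 1.30-fold in size. The order of the arrays differed among these 3 genes: Bax was lowest in neurogenic cellulates, and Bbc3 and Pmaip1 in BIO cellulates.

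A wider list of 47 other p53 targets had 31 members that could be compared in BIO cellulates against myoblasts. Of these, 0 were at least 2-fold higher and 2 lower, with a median log2 ratio of -0.07. Over all 12828 genes compared, genes measured on 1 array included, 17.2% passed 2-fold (11.2% higher, 6.01% lower) and the median was 0.00. Of 499 genes measured in BIO cellulates but not in myoblasts, 498 passed 2-fold, which raises the share higher. Among genes measured on both arrays 8.42% were higher. In neurogenic against BIO cellulates 1 of 34 was higher and 1 lower, beside 5.96% of all genes (4.16% higher, 1.80% lower). In neurogenic cellulates against myoblasts 4 of 34 were higher and 3 lower, beside 22.2% of all genes (12.1% higher, 10.0% lower). The medians were -0.07 and -0.16, against -0.17 and -0.06 over all genes. Of the 4 higher than in myoblasts, Gadd45a, Triap1 and Igfbp3 were measured on the neurogenic array alone. Among genes measured on both of those arrays 9.35% were higher.

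Cdkn1a, which encodes the cell-cycle inhibitor p21 and is the best known target for arrest, had a scaled signal of 4.64 in neurogenic cellulates, 5.62 in BIO cellulates and 3.42 in myoblasts. Its log2 ratios to myoblasts were 0.44 in neurogenic cellulates and 0.72 in BIO cellulates, under 2-fold. Sfn, an adaptor gene for arrest before mitosis, was 2.36-fold lower in BIO cellulates and 2.94-fold lower in neurogenic cellulates than in myoblasts, but its second probe gave log2 ratios of -0.19 and -0.51. Gadd45a, a stress sensor gene, was at least 4.18-fold higher in neurogenic cellulates than in myoblasts and at least 2.09-fold higher than in BIO cellulates, by a probe well above background on the neurogenic array alone. The targets for apoptosis other than the members held 0 genes past 2-fold among 7 compared in each comparison.

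Of the targets for repair, redox balance and metabolism, Sod2, the mitochondrial superoxide dismutase gene, was 3.19-fold higher in neurogenic cellulates than in myoblasts. Triap1 was at least 3.44-fold higher and Tigar, a regulator of glycolysis, at least 3.09-fold lower in that comparison. Thbs1, a secreted inhibitor of blood vessel growth, was 3.43-fold lower in BIO cellulates than in myoblasts, 3.02-fold lower in neurogenic than in BIO cellulates and 10.4-fold lower in neurogenic cellulates than in myoblasts, and its 3 probes gave log2 ratios between -3.42 and -3.27 in the last. Igfbp3, which encodes a binder of insulin-like growth factors, was at least 3.44-fold higher in neurogenic cellulates than in myoblasts. Gadd45a, Triap1 and Igfbp3 were measured on the neurogenic array alone, and all 539 genes measured on that array but not on the myoblast array passed 2-fold, the lowest scaled signal called well above background being 0.168 there and 0.0752 in myoblasts. After normexp correction none of these 3 genes, nor Tigar, passed 2-fold in neurogenic cellulates against myoblasts, with log2 ratios of 0.79 for Gadd45a (0.27 against BIO cellulates), 0.63 for Triap1, 0.80 for Igfbp3 and -0.59 for Tigar. With median scaling Sod2 was just under 2-fold.

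**Figure D4:**
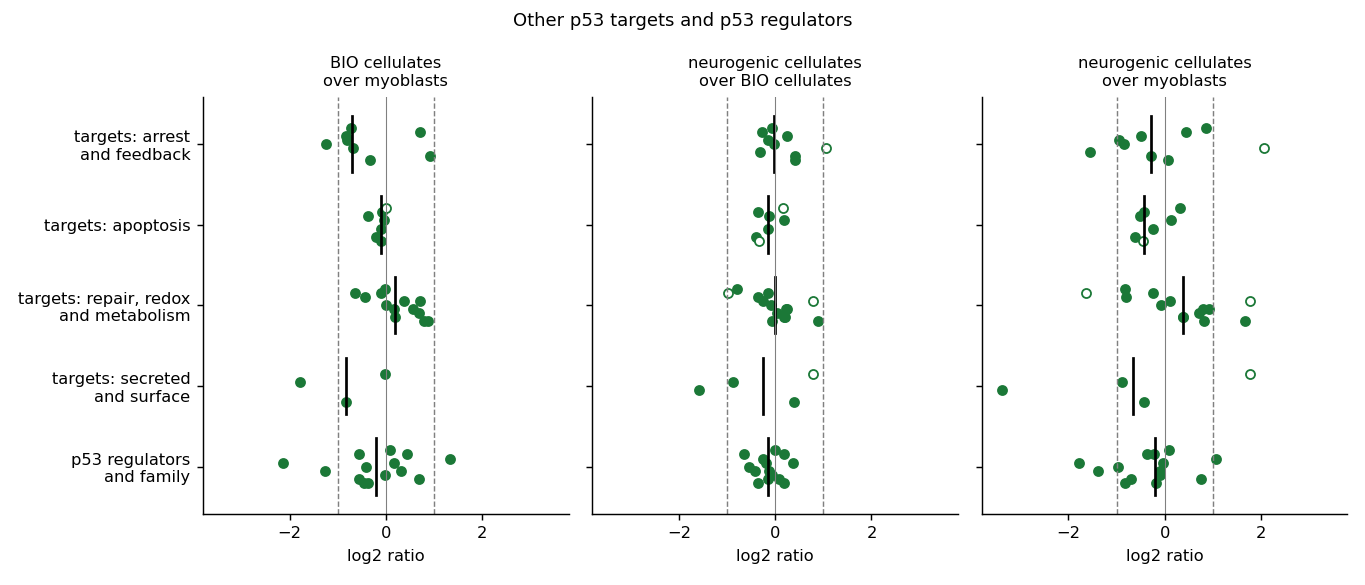
Log2 ratios (x axes) of other p53 targets in 4 lists and of p53 regulators (rows) in the 3 comparisons. Filled points are genes measured on both arrays, open points are bounds for genes measured on 1, black bars are list medians and dashed lines mark 2-fold. Most points lie between the dashed lines; Thbs1 is the point farthest to the left, at -3.38 in the right panel.

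Regulators of p53 numbered 18, of which 14 could be compared. Mdm4, the partner of Mdm2 in restraining p53, had log2 ratios between -0.09 and -0.03 in the 3 comparisons by its brightest probe, while a dimmer probe gave 0.53 for neurogenic cellulates over myoblasts. Chek1, a checkpoint kinase gene of DNA replication, was 4.40-fold lower in BIO cellulates than in myoblasts and 3.43-fold lower in neurogenic cellulates. Chek2, the kinase gene of the response to double-strand breaks, was 2.39-fold lower in BIO cellulates and 2.60-fold lower in neurogenic cellulates than in myoblasts, and a second probe gave a log2 ratio of -0.96 in BIO cellulates. Hipk2, a kinase that phosphorylates p53, was 2.52-fold higher in BIO cellulates and 2.11-fold higher in neurogenic cellulates than in myoblasts, and a second probe gave log2 ratios of 0.78 and 0.52. In neurogenic against BIO cellulates 0 of the 14 passed 2-fold. Cdkn2a, whose product Arf blocks Mdm2, was dim on all 3 arrays, and this gene was singled out after its values were seen.

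Neighbouring pathways were counted in the same way. Of 13 compared genes of the Bcl2 family and the caspases, 1 was at least 2-fold higher in BIO cellulates than in myoblasts, 1 in neurogenic than in BIO cellulates, and 3 in neurogenic cellulates than in myoblasts with 1 lower. These counts are near the shares of all genes past 2-fold, which were 17.2%, 5.96% and 22.2%. Bcl2l1, which encodes the survival protein Bcl-xL, was 2.67-fold higher by its brightest of 3 probes (log2 ratios 0.54 to 1.42) and Bcl2l11, which encodes the killer protein Bim, 2.57-fold higher in neurogenic cellulates than in myoblasts. Genes of the integrated stress response, which is also known to act on Gdf15, Bbc3 and Pmaip1, showed in BIO cellulates against myoblasts a median of 0.82 on the log2 scale across 12 genes, where 6 passed 2-fold upward and 0 downward, beside 11.2% and 6.01% of all genes and an all-gene median of 0.00. Among genes measured on both arrays the shares were 8.42% and 6.13%. In neurogenic against BIO cellulates 1 of 13 was higher and 0 lower, beside 4.16% and 1.80%, and the median was 0.41 against -0.17. In neurogenic cellulates against myoblasts the median was 1.29 over 13 genes, with 8 higher and 1 lower, beside 12.1% and 10.0% of all genes and an all-gene median of -0.06, led by Atf3 at 6.19-fold, Asns at 4.73-fold and Ddit3 at 4.62-fold. Psat1, among the 8, was measured on the neurogenic array alone, and the shares of genes measured on both arrays were 9.35% and 11.0%. With each array scaled to its median, log2 ratios to myoblasts fell by 0.72 in BIO cellulates and by 0.73 in neurogenic cellulates. Of the 6 genes past 2-fold in BIO cellulates, only Atf3, at 2.12 before that shift, stayed past it. The all-gene median fell too, to -0.66. The part of the integrated stress response in the values of Gdf15, Bbc3 and Pmaip1 was not tested.

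The cultures differed in other ways that went with these values. Muscle markers were compared for 8 genes: 5 passed 2-fold upward in BIO cellulates against myoblasts, where their median log2 ratio was 4.26, and 6 did so in neurogenic cellulates. All 5 proliferation markers compared were at least 2-fold lower in BIO cellulates than in myoblasts, and in neurogenic cellulates 4 of 6 were, with the other 2 higher. Of those 2, Birc5 was 2.48-fold higher and Top2a at least 2.46-fold. Top2a was measured on the neurogenic array alone, at 0.185, where the lowest scaled signal called well above background was 0.168. Of 8 neuron markers, Nefl, Syp and Snap25 were dim on all 3 arrays, Nefm was well above background in neurogenic cellulates alone, and Dcx was so in BIO cellulates alone. Map2 was 2.31-fold lower in neurogenic cellulates and 4.20-fold lower in BIO cellulates than in myoblasts, and 1.82-fold higher in neurogenic than in BIO cellulates. For neurogenic cellulates over myoblasts Tubb3 had a log2 ratio of -0.97, and Rbfox3 differed by at most 1.29-fold in the 3 comparisons. Among fibroblast markers Pdgfra and Lum were dim on all 3 arrays, while Dcn was 6.47-fold higher in neurogenic than in BIO cellulates. Col1a1 and Col1a2 had log2 ratios of -0.45 and -0.27 there, and Col1a1 was 3.25-fold lower in neurogenic cellulates and 2.38-fold lower in BIO cellulates than in myoblasts. The part of these shifts in the p53 target values was not tested. Well above background were 45.7% of 43379 spots in neurogenic cellulates, 46.9% in BIO cellulates and 50.7% in myoblasts, with 0 saturated.

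Scaling moved the genes measured on both arrays together, the 10 included. With each array scaled to its median, their log2 ratios to myoblasts shifted by -0.73 in neurogenic cellulates and by -0.72 in BIO cellulates, and with scaling on spike-in controls their ratios of neurogenic to BIO cellulates shifted by 0.38. Over all genes compared, bounds included, the medians to myoblasts became -0.79 and -0.66 with median scaling, and that of neurogenic over BIO cellulates became 0.18 with spike-in scaling. Not all settings could move the 10 genes. Their chosen probes were well above background on all 3 arrays, so dropping the filter on dim probes or requiring both arrays gave the reported values by construction. The median over the probes of a gene could change only Trp53 and Ccng1. Eda2r was at least 2-fold higher than in myoblasts under all 9 other settings in both cellulate groups, with log2 ratios between 1.01 and 2.56 in BIO cellulates and between 1.27 and 3.25 in neurogenic cellulates. Gdf15 and Trp53inp1 were at least 2-fold higher in neurogenic cellulates than in myoblasts under 8 of 9. The lower levels of Bax and Ccng1 passed 2-fold under 2 of 9 settings each. The sign of the Mdm2, Trp53, Bbc3 and Pmaip1 ratios of neurogenic cellulates to myoblasts turned under 3 of 9 settings, and that of Zmat3 turned with median scaling. For BIO cellulates over myoblasts the sign of the Trp53, Mdm2 and Gdf15 ratios turned under 2 of 9 and that of Trp53inp1 under 1, and for neurogenic over BIO cellulates that of Mdm2 under 2. For Mdm2 the rescaled deposited values were among these settings in both comparisons. The Ccng1 ratios of neurogenic cellulates turned with the median over its probes.

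**Figure D5:**
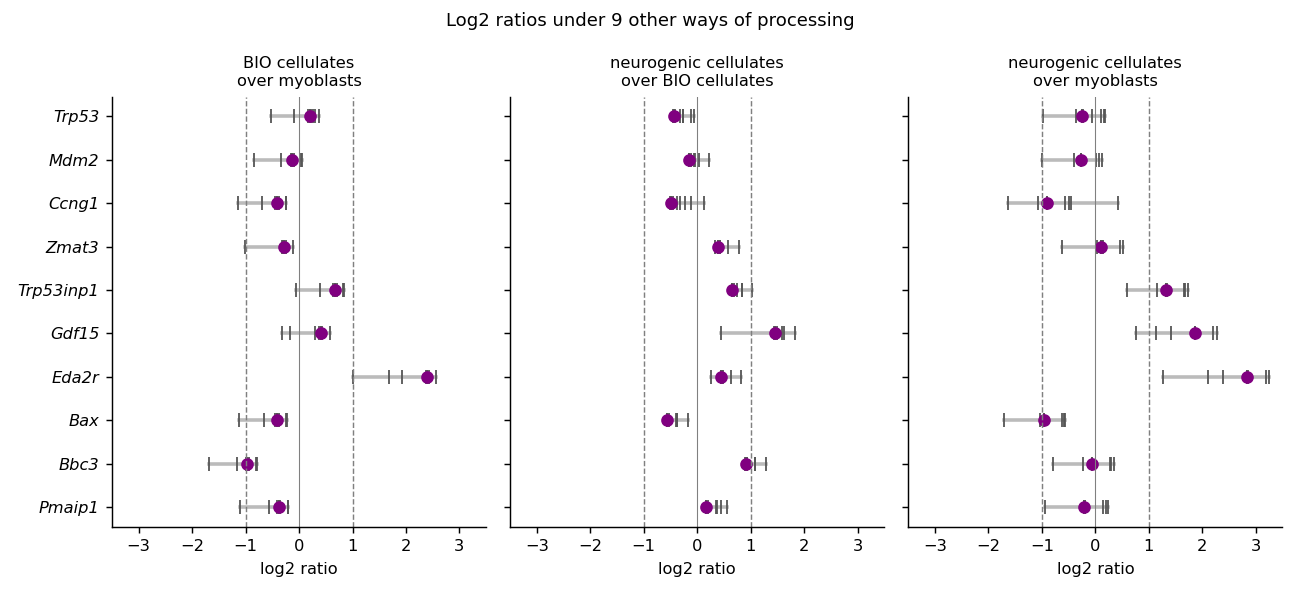
Log2 ratios (x axes) of the 10 genes (rows) in the 3 comparisons under the reported processing (purple points) and under 9 other settings (ticks, joined by a grey bar from the lowest to the highest). Dashed lines mark 2-fold. The bar of Eda2r lies beyond 2-fold in the left and right panels, and those of Trp53 and Mdm2 cross 0 there.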

How the data were processed

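Processed intensity, median spot signal and median background came from 3 Agilent files, 1 per group, on 1 slide; per the file headers, Feature Extraction 10.7.3.1 subtracted background and detrended each intensity, with build mm9 named. The authors' deposited log2 table (medians 7.88, 7.77 and 7.42 for neurogenic cellulates, BIO cellulates and myoblasts) lies above the log2 of the scanner intensity by 0.23, 0.67 and 0.00 and is not centred by gene. How those constants were set is not stated, but they are close to scaling on the 75th percentile of the myoblast array, which gives 0.22 and 0.66 for the cellulate arrays. The deposited scaling is thus near the one used here. Columns of other samples number 0. Control and outlier spots were left out and spots averaged on the log2 scale after scaling to the 75th percentile of each array (156, 115 and 181 intensity units for neurogenic cellulates, BIO cellulates and myoblasts). Probes were named by a RefSeq or Ensembl accession that pointed to 1 gene (GRCm38.p6, 26918 of 41174 probes). Coordinates belong only to the promoter table. A gene took its brightest probe with a value on all arrays. Genes measured on 1 array got a bound against the higher of the dim probe's signal and the array's lowest signal well above background. A gene whose chosen probe was dim on an array where another of its probes was well above background was left out. Called means at least 2-fold; no test was possible. All 10 members are described. Of the other lists, genes past 2-fold were named, at most 6 per list and comparison, with Cdkn1a and Mdm4 always and at most 3 in the neighbouring pathways. Members and lists were chosen with earlier results of these data known. Python 3.11.15, R 4.3.3 and limma 3.58.1 (normexp on median spot and background signals, offset 50) were used, and the functions were tested on simulated data.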

Additional observations from a re-analysis of the deposited data

How the results depend on the processing

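The reported values were recomputed under 9 other settings, 1 of them (scaling on spike-in controls) chosen after seeing the data. Another used the authors' deposited log2 values after each array was scaled again, so its ratios are not the ratios as deposited. Genes past 2-fold were not counted for the values as deposited. Of 30 ratios of the 10 genes, 18 kept their sign under all 9. Among the 9, dropping the filter on dim probes and requiring both arrays could not change any of these ratios. Members at least 2-fold different numbered 1 in BIO cellulates against myoblasts. There were 6 with median scaling (5 of them lower) and 2 after normexp correction. In neurogenic against BIO cellulates such members numbered 1. There were 2 after quantile normalisation, 0 after normexp correction, 2 with the rescaled deposited values and 3 with spike-in scaling. In neurogenic cellulates against myoblasts such members numbered 3. There were 5 with median scaling (3 of them lower) and 4 after normexp correction (2 higher, 2 lower). The median log2 ratio of the 10 genes was -0.92 with median scaling in the first comparison and 0.66 with spike-in scaling in the second. In the third it was -0.87 with median scaling, 0.21 after quantile normalisation, 0.21 with the rescaled deposited values and 0.27 with spike-in scaling. Less the median of all genes, the members' median stayed between -0.47 and -0.17, between 0.38 and 0.52, and between -0.32 and 0.25 in the 3 comparisons. Median scaling rests on signals near background, with array medians of 24.4, 17.9 and 17.1 intensity units.

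Over all genes, 2211 passed 2-fold in the first comparison, against 4070 with median scaling, 1035 after normexp correction and 5414 with no filter on dim probes. In the second 730 did, against 270 after normexp correction, 467 with the rescaled deposited values and 1651 with no filter. In the third 2848 did, against 5646, 1676 and 6656 under the settings of the first. Higher genes made up 65.1% of these in the first, against 9.07% with median scaling, 50.4% after quantile normalisation and 29.1% after normexp correction. In the second they made up 69.9%, against 92.6% with spike-in scaling. In the third their share was 54.7%. It was 11.5% with median scaling, 31.4% after normexp correction, 75.8% with the rescaled deposited values and 82.1% with spike-in scaling. The cause of these differences between settings was not tested. No paired analysis was possible because each group has 1 array.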
